A study of Mus musculus with 48 samples.

Results

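The Zfp zinc finger genes of mouse kidney were followed over the day in RNA abundance and in ribosome-protected fragments (RPF), the pieces of mRNA that ribosomes shield from nuclease and that serve as a measure of translation. Genes entered the set when their symbol was Zfp followed only by digits and their median reached 2 RPKM in RNA-seq and 0.5 RPKM in RPF-seq, where RPKM is the number of reads per kilobase of coding sequence, scaled to the normalised size of the library. Of 12423 genes listed in both assays, 286 carried such a symbol and 229 met both limits. The other 57 fell below the RNA limit, and none was lost to the RPF limit alone. Zfp579 (median 2.00 RPKM) and Zfp108 (1.99 RPKM) lay just outside the RNA limit, and Zfp974 (2.01 RPKM) and Zfp438 (2.03 RPKM) just inside it, whereas Zfp708 (0.543 RPKM) and Zfp13 (0.551 RPKM) had the lowest RPF medians among the members. Kidneys came from male C57BL/6JRj mice aged 11 to 12 weeks, kept for 2 weeks under 12 h of light and 12 h of darkness per day. Tissue was collected every 2 h, from lights on at ZT0 (zeitgeber time) to ZT22, as 2 replicate pools per timepoint with the organs of 2 mice in each. Every pool gave 1 RNA-seq and 1 RPF-seq library, 24 of each, and the labels name no transgene or treatment. Sampling was under the light cycle, so rhythms driven by light, feeding or the clock cannot be told apart, and in whole kidney fewer cells of a type and less RNA per cell cannot be told apart either.

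Zinc fingers of the C2H2 type are short modules in which a pair of cysteines and a pair of histidines hold a zinc ion, and arrays of them read DNA sequence or, in some proteins, bind RNA. Many mammalian members also carry a KRAB domain, which recruits the corepressor Trim28 and through it the histone methyltransferase Setdb1, and are known for silencing retroelements and for keeping imprints. These genes arose by repeated local duplication, lie in clusters and are usually expressed at low levels. The name Zfp covers more than this family, since proteins with other kinds of finger that act in mRNA decay, ribosome assembly or splicing bear it too.

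The members shared sequence that the rule did not use. Coding sequences were found for 227 of them in GENCODE vM21 (GRCm38), and 219 of these encoded at least 1 match to the C2H2 spacing, with a median of 10 matches and up to 36 in Zfp142. At least 3 matches were present in 202 members, against 1.71% of the other tested genes. The back part of the KRAB domain's A box was matched in 84 members, a pattern that is specific but misses diverged domains. Chromosome 7 held 52 members (22.9% of those placed, against 7.29% of all tested genes) and chromosome 17 held 31 (13.7%, against 4.77%). The linker between neighbouring fingers is so conserved that stretches as long as a footprint are identical between members, which is shown here because the RPKM values carry no correction for mappable length. Each of the following 28-base runs, given in the coding direction with the linker codons in capitals, occurred in several members.
First run, in 9 members and in 26 genes of the annotation: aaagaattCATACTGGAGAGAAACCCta
Second run, in 8 members and in 37 genes: CATACAGGAGAGAAACCTtacaaatgta
Last run, in 4 members and in 9 genes: aaagaacaCATACTGGAGAGAAGCCCta
The first run was found in Zfp708, Zfp873 and Zfp959, among others, and the second in Zfp758 and Zfp944, all of which are described below. Even so, the median member shared only 0.836% of its coding 28-mers with another gene, and 171 members had at least 90% of their own. Zfp708 and Zfp935 shared all of theirs (100%), Zfp706 shared 99.0% and Zfp433 96.1%, so their values are uncertain. The largest overlap between a pair of members was 776 shared 28-mers, 52.3% of Zfp937 and 39.2% of Zfp442.

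Kidney markers were high, with medians of 2534 RPKM for Umod of the thick ascending limb and 2352 RPKM for Slc34a1 of the proximal tubule. Of 12 markers of other cells, Cyp11b1, Cyp11a1 and Acta1 were not listed and the other 9 ran from 0.892 RPKM for Adipoq of fat (0.128 to 3.98) to 201 RPKM for Cd74 of antigen-presenting cells, with Kdr and Pecam1 of endothelium at 38.8 and 34.5 RPKM, Pdgfrb at 22.9 RPKM, Alb at 15.2 RPKM and Col1a1 at 14 RPKM. The part of such cells in the members' levels was not tested. Steps between the lowest values placed the normalised depth at 9.83 M to 33.5 M reads per RNA-seq library and 15.5 M to 34.9 M per RPF-seq library. On that scale the median member rested on 115 to 383 reads in an RNA-seq library and 92 to 240 in an RPF-seq library. Depth differed with the light cycle. Its median was 18.7 M reads in the light and 13.4 M in the dark for RNA-seq, and 26.0 M and 20.1 M for RPF-seq. The part of depth in the rhythms was not tested. RPF-seq at ZT4, replicate 2, had 125 genes at 0, 2 of them members, against at most 14 genes in any other library, and without that pool the counts given below became 32 members in RNA, 7 in RPF, 13 in TE rhythm and 148 with a low TE.

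Members were less abundant than the genes around them and were translated less for their abundance. Their RNA had a median of 6.32 RPKM (2.01 to 142.7) against 16.4 RPKM over the 11863 genes tested, those with a median of at least 0.5 RPKM in both assays. In RPF the medians were 3.22 RPKM (0.543 to 219) and 13.5 RPKM. Translation efficiency (TE), the ratio of RPF to RNA RPKM in the same pool, was therefore low: relative to the median of all tested genes of a pool, the members had a median log2 TE of -0.80, which is 1.74-fold below it. By limma with Benjamini-Hochberg adjustment and a minimum of 1.5-fold, 149 of 229 members (65.1%) had a TE below the median of their pools, where 26.0% of all tested genes did. TE was higher by the same rule in 8 members (3.49%), against 20.6% of all genes. This did not depend on single pools: the members' median log2 TE ran from -0.98 to -0.62 over the 24 pools, 151 members were below the median in every one of them and 12 were above it in every one. The plot of TE distributions shows the members as a shifted group with a tail on both sides.

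**Figure D1:**
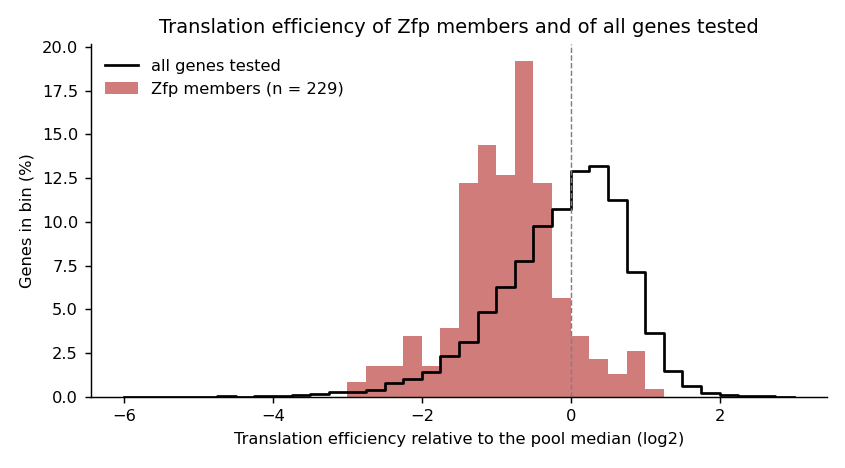
Distribution of translation efficiency, as log2 relative to the median of the tested genes of a pool and averaged over 24 pools, for the 229 Zfp members (bars) and for all 11863 genes tested (line), each as the percentage of genes per bin. The members centre at -0.80, left of the dashed line at 0.

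The lowest TEs belonged to proteins of several kinds. Zfp236, a protein with 30 finger matches, had RNA of 8.35, 10.3 and 11.7 RPKM (lowest, median and highest of the 24 libraries) and RPF of only 0.902, 1.21 and 1.49 RPKM, so the ranges of the assays did not overlap. Its log2 TE was -2.92 ± 0.04 (SE, n = 24 pools; limma adjusted p = 9.64e-30), or 7.59-fold below the median gene. Zfp523, the paralogue of the promoter factor Zfp143, had RNA from 7.77 to 16.1 RPKM and RPF from 0.482 to 2.11 RPKM, with a log2 TE of -2.86 ± 0.09. Zfp143 itself had 6.81 RPKM in RNA and 7.69 RPKM in RPF (medians), and its log2 TE was 0.25 ± 0.04. Paralogues of related sequence thus stood at opposite sides of the median.
Zfp106, an RNA-binding protein, was among the most abundant members in RNA, with 58.6, 65.2 and 72.6 RPKM, yet its RPF reached only 8.05, 9.48 and 10.8 RPKM (log2 TE -2.70 ± 0.03). The KRAB protein Zfp810 (-2.71 ± 0.06), Zfp644, a partner of the histone methyltransferases G9a and GLP (-2.69 ± 0.04), and Zfp251 (-2.66 ± 0.07) completed the lowest 6, all of them below the median in 24 of 24 pools.

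At the upper end stood members that mostly lack long finger arrays. Zfp319 had the highest TE, with RNA of 1.75, 3.12 and 4.60 RPKM against RPF of 5.39, 6.43 and 8.43 RPKM, again without overlap, and a log2 TE of 1.08 ± 0.07 (limma adjusted p = 1.62e-14). It was the exception in carrying 12 finger matches. Zfp703, a transcriptional corepressor, followed at 0.93 ± 0.07, and Zfp36, which encodes tristetraprolin and promotes the decay of mRNAs with AU-rich elements, at 0.82 ± 0.09 with RPF of 11.6, 16.9 and 37.9 RPKM. Zfp503, a developmental repressor (0.81 ± 0.05), Zfp593, of ribosome assembly (0.81 ± 0.07), and Zfp326, of a complex that couples elongation to splicing (0.79 ± 0.06), completed the highest 6. None of Zfp36, Zfp503 and Zfp703 had a match to the C2H2 finger spacing. The 8 members without such a match had a median log2 TE of 0.59, those with 1 to 5 matches (n = 44) -0.62, those with 6 to 11 (n = 81) -0.89 and those with 12 or more (n = 94) -0.91. Across 227 members TE went down with the number of fingers (Spearman's rho -0.25) and with coding length (-0.25), which are tied to each other, and showed a rho of 0.14 with coding GC content and 0.02 with RNA level (229 members). These are descriptions across genes of the same libraries.

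A low TE was shared with some related families and not with others. The 33 Zbtb genes tested, which join a BTB domain to C2H2 fingers, had a median log2 TE of -0.86, with 20 low and none high, and the 18 genes named Zfp with a letter after the number had -0.83, with 15 low. Among 15 Zscan and Zkscan genes the median was -0.50, with 7 low. The 12 Klf genes, which carry short finger arrays, stood at 0.20 with none low. The 36 tested Zfp genes below the RNA limit had a median of -0.57, so low values were also found on the other side of that limit. Members with the KRAB pattern had a median of -0.82 (59 of 84 low, none high) and those without a match -0.76 (88 of 143 low, 8 high). The counts were likewise low with each library's GC trend removed, where 134 of 227 members (59.0%) had a low TE against 25.8% of all genes with a GC value.

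In RNA-seq, 30 members were rhythmic, and they peaked mainly in the second part of the night or in the light phase. A rhythm was called where a 24-h cosine fitted to log2(RPKM + 0.1) passed an FDR of 0.05 and its peak exceeded its trough by 1.5-fold or more. Folds on this scale are too small for low genes. The share called, 13.1%, stood beside 10.2% of all tested genes. Without the minimum fold, 125 members (54.6%) passed the FDR, against 48.6%. Of the 30, 16 peaked from ZT18 to ZT24 (53.3%), 6 from ZT0 to ZT6, 8 from ZT6 to ZT12 and none from ZT12 to ZT18. These genes were measured in the same libraries, so the shares are descriptions. Over all called genes the late-night window held 18.3%. Without the minimum fold it held 52.0% of rhythmic members and 29.8% of all rhythmic genes, and with windows moved by 3 h in either direction it held 8 of the 30 called members (26.7%). The peaks of the replicate series lay within 3 h of each other in 30 of 30 called members, with a median difference of 0.71 h. The count itself was sensitive, and so was its place beside all genes. It was 10 (4.37%, against 6.09% of all genes) without the replicate 1 series, 48 (21%, against 12.1%) without the replicate 2 series, and 9 (3.93%, against 6.58%) with a pseudocount of 1 RPKM.

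GC content moved with these peak times. Members called with a peak from ZT18 to ZT24 had a median coding GC of 39.6%, and those called from ZT6 to ZT12 had 61.8%. The same order was seen over all called genes, with 47.1% and 58.3%. Among rhythmic members without a minimum fold, 50 of 53 with a GC content under 45% peaked from ZT18 to ZT24, while 22 of 32 with 55% or more peaked from ZT6 to ZT12. Over all tested genes it was 586 of 740 and 1200 of 2175, so the order was not particular to the members. The libraries themselves differed in how their values ran with GC: per 10 percentage points of GC, the log2 deviation of a gene from its mean sloped by -0.15 and -0.20 in the RNA-seq replicates of ZT20 and by 0.27 and 0.15 in those of ZT8. Replicates could also differ, as at ZT12, with 0.12 and -0.22. A 24-h cosine accounted for 39.2% of the variation of this slope in RNA-seq and 0.643% in RPF-seq. With each library's GC trend removed, 6 of 227 members (2.64%) were called in RNA, against 8.17% of all genes: Zfp41, Zfp395, Zfp418, Zfp446, Zfp609 and Zfp750. The first 5 were among the 30. The removal also takes out any rhythm that genes of like GC content share, so library chemistry and a rhythm common to GC-poor genes cannot be told apart by it, and the part of either in the peak times was not tested.

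**Figure D2:**
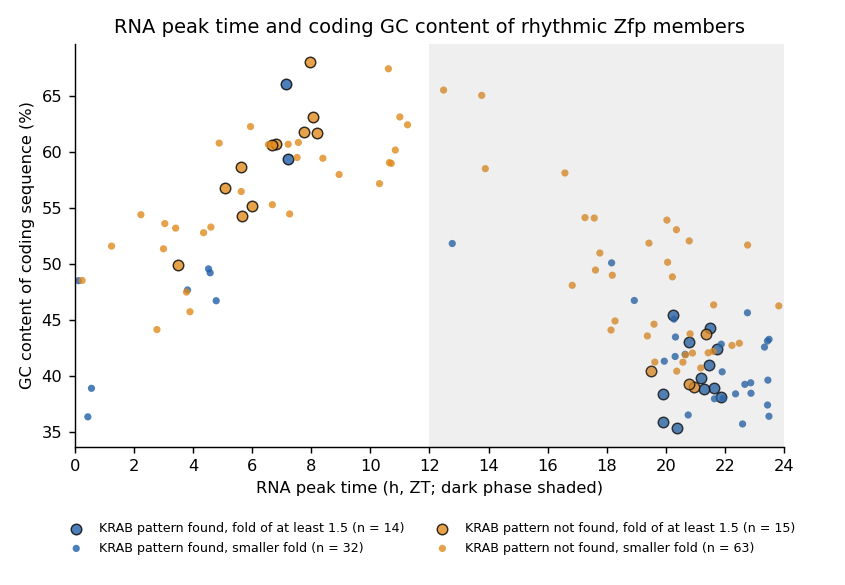
RNA peak time (h, ZT) against GC content of the coding sequence (%) for the 124 members that passed the FDR in RNA and had a GC value; outlined points also reached 1.5-fold, and colour marks the KRAB pattern. GC-poor members gather between ZT18 and ZT24 and most GC-rich ones between ZT4 and ZT12.

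**Figure D3:**
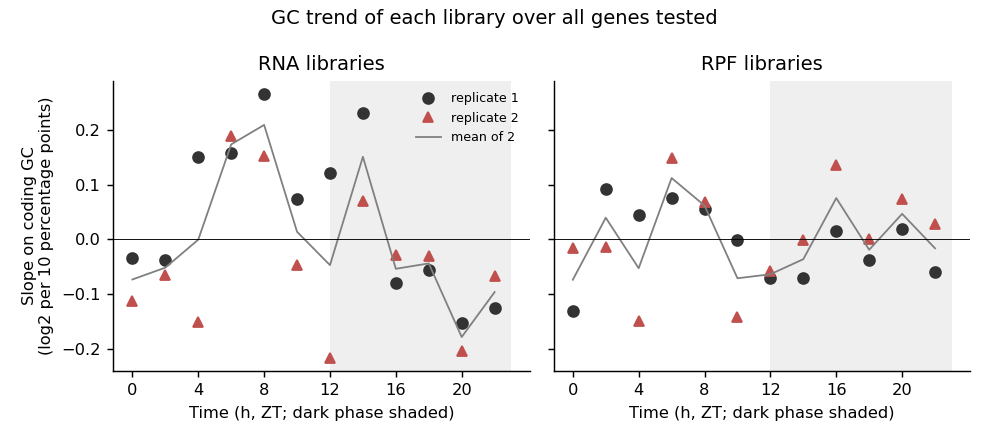
Slope of the log2 deviation of each gene on coding GC content (per 10 percentage points, over 11787 genes) for each RNA-seq and RPF-seq library by time; circles are replicate 1, triangles replicate 2 and the line their mean. RNA-seq slopes are highest at ZT8 and lowest at ZT20, while in RPF-seq a 24-h cosine accounts for 0.643% of the variation.

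The night group was led by Zfp944, a KRAB gene on chromosome 17 (chr17:22337989-22361400, GRCm38). Its RNA had 5.04, 8.80 and 11.9 RPKM as the lowest, median and highest of 24 libraries. At ZT20 its replicates had 11.8 and 11.9 RPKM and at ZT6 6.48 and 5.04 RPKM, with no overlap between these timepoints. The fitted fold was 1.75 (log2 0.81 ± 0.13 SE; limma adjusted p = 6.18e-05) with a peak at ZT20.4. Its coding GC content was 35.4%, and with the GC trend removed the fold was 1.28 (adjusted p = 0.000293), below the minimum fold. Its neighbour Zfp758 starts on the other strand 53 bases away (chr17:22361453-22377281). Zfp758 had RNA of 10.1 and 9.88 RPKM at ZT20 and 4.02 and 5.74 RPKM at ZT8, a fold of 1.60 (0.68 ± 0.17; adjusted p = 0.00824) and a peak at ZT19.9. At ZT12 its replicates stood apart, at 6.00 and 11.2 RPKM, as did those of Zfp944, at 7.04 and 10.9 RPKM, in the libraries whose GC slopes also differed.

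The upstream sequence of this pair is shown because the members move together and share it. In the RefSeq table (GRCm38.p6) the 250 bases upstream of Zfp944 (chr17:22361401-22361650, minus strand) and those upstream of Zfp758 (chr17:22361213-22361462, plus strand) overlap and hold the same copy of CACGTG, the E-box bound by the clock factors Clock and Arntl, which is in capitals and begins 29 bases upstream of the listed start of Zfp944 and 39 bases upstream of that of Zfp758.
Zfp944: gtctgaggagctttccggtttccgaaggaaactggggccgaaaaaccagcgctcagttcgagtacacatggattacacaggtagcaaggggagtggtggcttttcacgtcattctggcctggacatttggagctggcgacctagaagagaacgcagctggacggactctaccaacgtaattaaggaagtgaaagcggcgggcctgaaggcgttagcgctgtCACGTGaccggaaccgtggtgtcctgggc
Zfp758: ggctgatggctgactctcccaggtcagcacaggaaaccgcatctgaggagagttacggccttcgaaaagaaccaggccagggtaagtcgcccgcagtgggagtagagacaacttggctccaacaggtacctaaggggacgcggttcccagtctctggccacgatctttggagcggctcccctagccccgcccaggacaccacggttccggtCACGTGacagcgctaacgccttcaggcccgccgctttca
A match in a window is a description and not a site of binding. Promoter windows (250 bases before the start to 50 after it) were found for 186 members, of which 10 (5.38%) held CACGTG on either strand, against 10.4% of 9337 tested genes and 7.24% of 27025 promoters in the table. Among 23 called members with a window it was found in 3 (13.0%), near the share of tested genes: Zfp944 and Zfp758, which share a copy, and Zfp708. All 3 peaked from ZT18 to ZT24, as did 15 of the 23. The D-box letters TTATGTAA were in no member's window, against 0.557% of tested genes. AGGTCA, a motif of nuclear receptors, was in 18 members (9.68%) and in 4 of the 23 called (17.4%), against 12.2% of tested genes. It also lies, unmarked, in the printed sequence of Zfp758.

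Further KRAB genes of the night group had like profiles. Zfp983 had RNA of 3.79 and 3.31 RPKM at ZT20 and 2.41 and 1.55 RPKM at ZT8 (fold 1.69, adjusted p = 0.000528, peak ZT21.3). Zfp418 stood at 3.47 and 3.32 RPKM at ZT20 against 1.75 and 1.71 RPKM at ZT8, with a fold of 1.71 (log2 0.77 ± 0.10; adjusted p = 2.73e-06) and a peak at ZT20.2. Its GC content of 45.5% was the highest of the night group, and it alone of that group was called with the GC trend removed (fold 1.52). Zfp959 peaked at ZT21.9 with 5.23 and 5.73 RPKM at ZT22 (fold 1.67), Zfp873 at ZT21.5 (fold 1.63) and Zfp560 at ZT21.7 (fold 1.59), and the GC-corrected folds of these genes were 1.32, 1.34 and 1.35. Zfp959 shares 49.7% of its coding 28-mers and Zfp983 41.7%, so their values are uncertain. Of the rhythmic members without a minimum fold, 36 of 46 with the KRAB pattern (78.3%) peaked from ZT18 to ZT24, against 29 of 78 without a match (37.2%). The median GC content was 41.7% in members with the pattern and 53.4% in those without. Tested genes outside the members with a GC content under 45% had 536 of 687 such peaks from ZT18 to ZT24 (78.0%). The parts of KRAB and GC content in the members' peak times were not tested.

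The light-phase group differed in kind, most of its genes lacking the KRAB pattern. Zfp609, which works with the cohesin loader Nipbl, had RNA of 3.67, 6.20 and 8.69 RPKM. Its level was 7.38 and 7.42 RPKM at ZT6 and 3.86 and 3.97 RPKM at ZT20, a fold of 1.71 (log2 0.78 ± 0.13; limma adjusted p = 0.000147) with a peak at ZT5.99. The fold was 1.65 with the GC trend removed, the highest of the 6 genes called in that way. Zfp395 ran from 3.88 to 9.05 RPKM with 7.25 and 8.33 RPKM at ZT6 and 3.88 and 4.26 RPKM at ZT20 (fold 1.72, peak ZT6.66), and its GC-corrected fold was 1.53. Zfp446 had a fold of 1.67 (peak ZT5.62) and a GC-corrected fold of 1.56. Zfp316, an exception with the KRAB pattern, had the smallest adjusted p of the 12 largest folds (2.74e-07), with 4.61 and 5.67 RPKM at ZT6 and 2.89 and 2.76 RPKM at ZT20, a fold of 1.68 and a GC content of 66.1%. Zfp703 (fold 1.65, peak ZT7.95, GC 68.0%) was less even, since its ZT4 replicates had 4.62 and 2.14 RPKM. Zfp316 and Zfp703 had GC-corrected folds of 1.46 and 1.39.

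Fewer members were called rhythmic in translation, where their signal was also lower (median RPF 3.22 RPKM, against 13.5 RPKM over all tested genes). The part of this low level in the counts was not tested. In RPF-seq 5 members (2.18%) passed the FDR and the minimum fold, against 7.58% of all tested genes, and 30 (13.1%) passed the FDR alone, against 30.9%. Removing GC trends gave 6 members (2.64%), against 7.72%. With a median of at least 2 RPKM in both assays, 4 of 164 members (2.44%) were called, against 6.49%. The count was 3 without ZT8 replicate 2 or without ZT16 replicate 2, and 0 with a pseudocount of 1 RPKM, where 31 members passed the FDR without the minimum fold. Zfp512 and Zfp511 were the clearest. Zfp512 had RPF of 6.79 and 6.20 RPKM at ZT6 and 3.80 and 3.68 RPKM at ZT14, with no overlap, a fold of 1.51 (log2 0.59 ± 0.09; limma adjusted p = 7.56e-05) and a peak at ZT3.64. Its RNA followed at a fold of 1.46 and a peak of ZT4.35, just under the minimum fold. Zfp511 had RPF of 5.98 and 7.09 RPKM at ZT2 and 3.02 and 3.89 RPKM at ZT14 (fold 1.56, adjusted p = 0.000302, peak ZT1.70), while its RNA stayed between 6.53 and 10.5 RPKM with a fitted fold of 1.04 (adjusted p = 0.904).
Zfp810 had RPF of 6.70 and 7.5 RPKM at ZT10 and 3.15 and 2.26 RPKM at ZT18 (fold 1.61, adjusted p = 0.012), and an RNA fold of 1.18 that did not pass (adjusted p = 0.127). Zfp329 (fold 1.56, adjusted p = 0.0211) and Zfp983 (fold 1.55, adjusted p = 0.0426) were the 2 members called in both assays (0.873%, against 4.25% of all genes). The Zfp983 footprints were few, 0.505 to 1.35 RPKM over the libraries.

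The members called in RNA had flatter footprint curves. Over the 30, the fitted fold had a median of 1.57 in RNA (1.5 to 1.75) and 1.24 in RPF (1.06 to 1.56), and it was lower in RPF for 29. Since they were chosen for a high RNA fold, a lower value in the other assay was favoured by the choice, and it is given as a description. A TE rhythm at an FDR under 0.05 was found for 7 of the 30, where 17.1% of all tested genes had one. RNA is a term of that ratio, so the choice by RNA fold favoured such a rhythm too. The other 23 did not pass that test, which does not show that their curves were alike. Over all 229 members, without a choice by RNA, the median fold was 1.26 in RNA and 1.17 in RPF, and 154 (67.2%) had the smaller fold in RPF. Over all tested genes the medians were 1.20 and 1.18, and 56.5% had the smaller fold in RPF. With GC trends removed the members' medians were 1.19 and 1.17, and 115 of 227 (50.7%) had the smaller fold in RPF, against 49.8% of all genes.

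**Figure D4:**
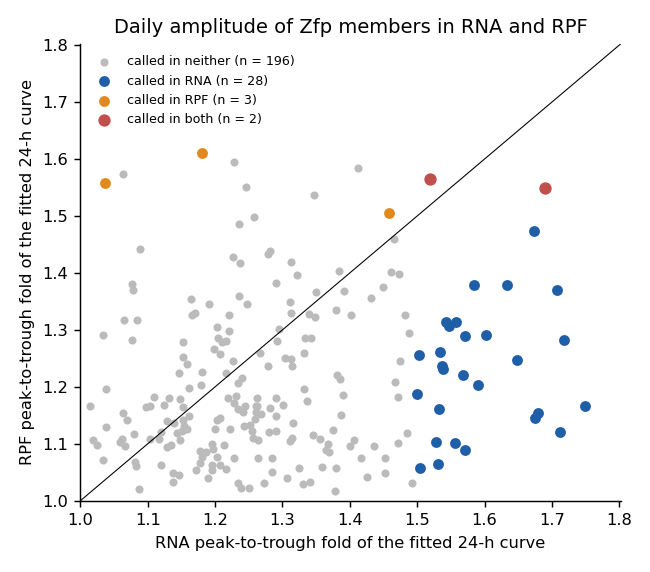
Peak-to-trough fold of the fitted 24-h curve in RNA (horizontal) and RPF (vertical) for 229 members, coloured by the assay in which they were called; the line marks equal folds. All but 1 of the members called in RNA lie below the line, with a median of 1.57 in RNA and 1.24 in RPF.

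Where both assays passed the FDR, their timing was close. This held for 20 members (8.73%, against 20.6% of all genes). The RPF peak minus the RNA peak had a median of -0.78 h, with a range from -5.19 to 2.52 h. The RPF peak was the earlier in 15 and the later in 5, and 18 differed by 3 h or less. Zfp7 peaked in both at ZT12.8, and Zfp638 at ZT19.5 in RNA and ZT19.2 in RPF. The differences of over 3 h were those of Zfp263 (-5.19 h) and Zfp329 (-4.04 h). For Zfp329, RNA was 7.06 and 7.58 RPKM at ZT20 and 6.82 and 7.03 RPKM at ZT16. Its RPF was 3.07 and 2.17 RPKM at ZT20 and 2.52 and 2.71 RPKM at ZT16, so the difference rests on the fitted curves. Over the members called in both, Zfp329 and Zfp983, the median difference was -2.47 h.

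The time course of TE itself was tested in the ratio of the assays within each pool, and 12 members (5.24%) changed by at least 1.5-fold, against 3.74% of all tested genes. Without the minimum fold there were 32 (14%), against 17.1%. The count was 6 without ZT20 replicate 1, and no member passed with either replicate series left out, where 26 and 63 members had an unadjusted limma p under 0.05. Of the 12, 6 had their highest TE from ZT6 to ZT12 and 4 from ZT18 to ZT24. The former had a median GC content of 40.6% and the latter 62.4%, the mirror image of the order in RNA. All called genes had 17.8% and 27.9% of their TE peaks in these windows and GC medians of 43.6% and 59.4%, so the GC order was not particular to the members. With GC trends removed 3 of 227 members (1.32%) passed, against 2.37% of all genes: Zfp326, Zfp511 and Zfp609. The part of GC content in the others was not tested. Zfp609 and Zfp511 were called both ways. Zfp609 had flat RPF, from 2.04 to 3.27 RPKM, under a cycling RNA, and its TE fold was 1.70 (log2 0.76 ± 0.13; limma adjusted p = 0.00161) with a peak at ZT18.8. Zfp511 had the converse, a cycling RPF over RNA in which no 24-h rhythm was called. That RNA was not level, with 9.89 and 10.5 RPKM at ZT18 and 7.65 and 7.01 RPKM at ZT0. The TE fold of Zfp511 was 1.61 (log2 0.69 ± 0.14, limma adjusted p = 0.00682) with a peak at ZT1.79. For Zfp609 the peaks of the replicate series were ZT18.8 and ZT18.8, and for Zfp511 ZT1.31 and ZT2.43.
The larger fitted folds of Zfp52 (1.85, adjusted p = 0.0449), Zfp959 (1.81, adjusted p = 0.0462) and Zfp788 (1.75, adjusted p = 0.0202) rested on RPF medians of 0.977, 1.14 and 1.58 RPKM, and their adjusted p-values with GC trends removed were 0.108, 0.167 and 0.0626. Zfp319, the member of highest TE, peaked in TE at ZT19.9 (fold 1.59), with RNA of 2.28 and 1.75 RPKM at ZT20 and 4.60 and 3.58 RPKM at ZT10, and RPF with a fitted fold of 1.06. Its adjusted p was 0.0118, and 0.073 with GC trends removed.

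**Figure D5:**
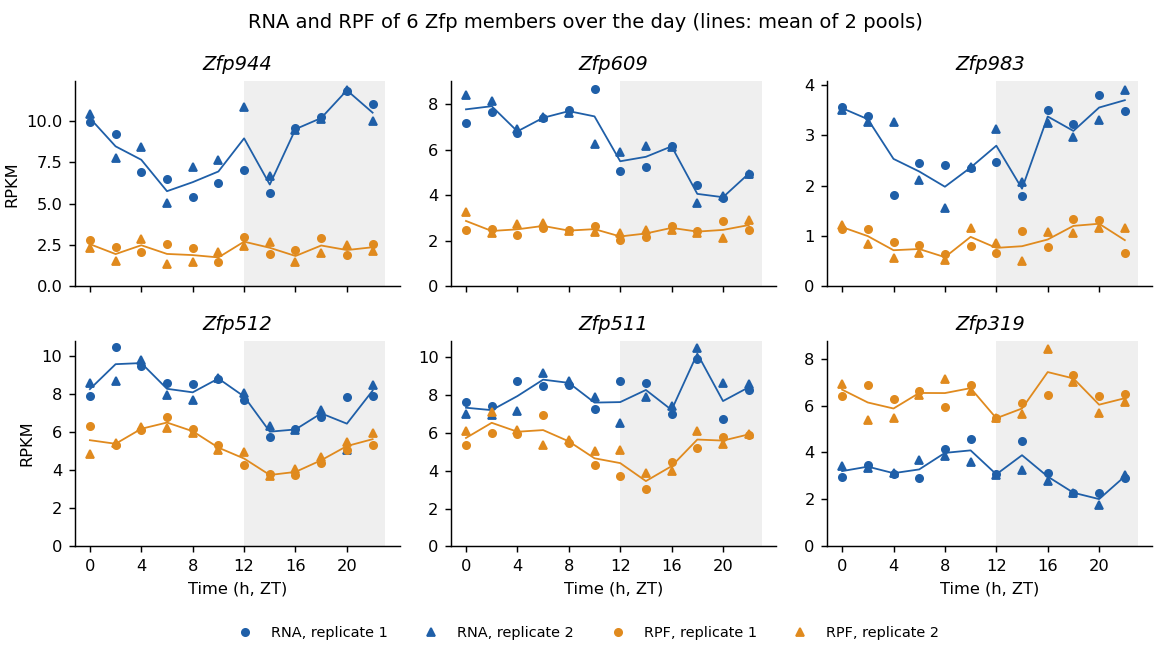
RNA (blue) and RPF (orange) in RPKM for 6 members at each timepoint; circles are replicate 1, triangles replicate 2 and lines their mean. Zfp944 and Zfp609 were called in RNA and not in RPF, with a TE rhythm called for Zfp609 but not for Zfp944. Zfp983 was called in both assays, and Zfp512 in RPF with an RNA fold of 1.46 just under the minimum. Zfp511 cycles in footprints, and Zfp319 has more footprint than RNA signal throughout.

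By role, 10 members act on RNA, ribosomes or protein turnover. They had a median log2 TE of 0.22, with 4 high (20.6% of all genes) and 3 low (26.0% of all genes). In RNA 2 were called (10.2% of all genes) and in RPF none (7.58%), and a list of 10 cannot be told from such shares. High were Zfp36, Zfp326, Zfp593 and Zfp207, a spindle assembly factor with RPF of 60.4 RPKM (log2 TE 0.62 ± 0.04). Low were Zfp106, Zfp91, a ubiquitin ligase of NF-kappaB signalling (-1.66 ± 0.03), and Zfp598, the ligase that marks collided ribosomes (-0.74 ± 0.04). Zfp622, of large subunit maturation, stood at 0.31 ± 0.04. Zfp638, an RNA-binding protein that helps to silence retroviral DNA, cycled in RNA with 33.7 and 32.6 RPKM at ZT20 and 18.2 and 19.8 RPKM at ZT8 (fold 1.57, limma adjusted p = 3.45e-06) and in RPF with a fold of 1.29 (adjusted p = 0.00339), and its GC-corrected RNA fold was also 1.29. Zfp346, which binds double-stranded RNA, peaked at ZT5.66 (fold 1.5). Zfp36 spanned 5.96 to 18 RPKM in RNA, with replicates at ZT6 of 11.7 and 18 RPKM, and did not pass (fold 1.49, adjusted p = 0.0889).

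Of 6 genes known for imprints or retroelements, 3 were members, while Zfp57, Zfp689 and Zfp932 were not. Zfp445, which maintains imprints, had 28.5 RPKM in RNA and 19.8 RPKM in RPF, with a log2 TE of -0.47 ± 0.03, and Zfp809, which recognises the primer binding site of retroviruses, had 23.3 and 16.6 RPKM and -0.44 ± 0.03. Both were below the median in 24 of 24 pools without reaching 1.5-fold. Zfp708 was low in TE (-2.27 ± 0.13) and rhythmic in RNA (fold 1.55), but it shares all its 28-mers. Of 15 other regulators of transcription, 13 were members, with a median log2 TE of -0.36, 5 low and 1 high (Zfp703). In RNA 2 of the 13 were called and 8 passed the FDR, where 10.2% and 48.6% of all genes did, and in RPF none passed it, where 30.9% of all genes did. Zfp410, the activator of Chd4, had 13.7 RPKM in RNA and 6.05 RPKM in RPF, with a log2 TE of -1.05 ± 0.05.

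The machinery that KRAB proteins recruit did not share the members' low TE. Of 17 genes listed for it, 16 were tested, with a median log2 TE of 0.07, 2 low and 3 high. Trim28 had 47.7 RPKM in RNA, a log2 TE of 0.06 ± 0.03 and an RNA fold of 1.04 (limma adjusted p = 0.671), and Setdb1 had 13.3 RPKM, -0.27 ± 0.03 and 1.07 (adjusted p = 0.387). None of the 16 was called in RNA or RPF, where 10.2% and 7.58% of all genes were, and 7 and 5 passed the FDR alone, close to the 48.6% and 30.9% of all genes. The low genes were Chd3 (-2.84 ± 0.04) and Fam208a of the HUSH complex (-0.74 ± 0.04), and Fam208a came nearest to an RNA rhythm, with a fold of 1.44 and a peak at ZT20.3.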

How the data were processed

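RNA-seq and RPF-seq of 24 kidney pools were analysed, 48 libraries in all. The authors trimmed the reads with cutadapt, mapped them with Bowtie2 2.2.1 and TopHat2 2.0.11 to mouse cDNA and GRCm38.p2, built transcript models with Cufflinks 2.2.1, counted reads on coding sequences, normalised by upper quantiles in edgeR and deposited the resulting RPKM of every gene in each library, uncorrected for mappable length. How reads matching several genes were counted is not given in the sources used here. Being RPKM, the values were not given to a count model.

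The 11863 genes with a median of at least 0.5 RPKM in both assays were tested on log2(RPKM + 0.1) with limma 3.58.1 (R 4.3.3, eBayes with a variance trend) and Benjamini-Hochberg adjustment over all of them. Rhythm was the F test of 24-h cosine and sine terms over the 24 libraries of an assay, or over the 24 log2 ratios of RPF to RNA for TE. TE level was log2 TE minus the pool's median, tested against 0. Calls needed an FDR under 0.05 and 1.5-fold. The fits were tested on simulated data. GC correction removed a lowess trend on coding GC (span 0.3) from each library. Assays were paired by pool, which the labels give as a shared lysate, and replicate differences of RNA and RPF correlated at 0.106 to 0.447 in 12 of 12 timepoints. Replicates are separate pools of mice, so p-values measure the spread between pools. Depth came from N such that RPKM, length and N give whole reads: 79.3% to 93.3% of the 150 lowest genes of a library were whole within 0.05, so it is approximate. Coding features came from translated GENCODE vM21 sequences, for 227 of 229 members (not Zfp125 and Zfp939), promoters from RefSeq. Figures and summaries used Python 3.11.15, numpy 2.4.6, pandas 2.3.3, scipy 1.17.1 and matplotlib 3.10.9.

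The members, lists and tests were chosen with earlier results of these data known. Named were the 12 largest called RNA folds, all called RPF rhythms and those in both assays, the 6 largest called TE folds, the 6 highest and lowest TEs, members of 3 role lists, and genes beside each limit, while Zfp142, Zfp185, Zfp7, Zfp263, Zfp41 and the members of high 28-mer sharing were named after their values were seen. Results were recomputed under other settings. Among them were pseudocounts of 1 and 0.01, RPKM minima, an FDR of 0.01, no minimum fold and other normalisations. Further ones were GC and length corrections, a 12-h harmonic, AIC choice, a replicate block and TE centred on the mean. The last were leaving out replicates or single pools, and members with at least 90% of 28-mers of their own. Liver libraries were not analysed here.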

Additional observations from a re-analysis of the deposited data

Results flagged for a closer look

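Members whose curves over the day differed between RNA and RPF, by the limma test of the TE rhythm (the assay by time interaction; adjusted p from 0.00161 to 0.0462), are given with the fitted TE fold. Highest in TE from ZT6 to ZT14 were Zfp52 (1.85), Zfp959 (1.81), Zfp788 (1.75), Zfp472 (1.60), Zfp709 (1.59), Zfp869 (1.52) and Zfp748 (1.51), all with a coding GC content of 38.1% to 43.7%. Highest from ZT18 to ZT21 were Zfp609 (1.70), Zfp319 (1.59), Zfp316 (1.57) and Zfp513 (1.5), with 55.2% to 66.1%. Zfp511 (1.61) peaked at ZT1.79 with 57.9%. In 10 of the 12 the replicate series differed in peak by 3 h or less, and the largest difference was 3.17 h. With GC trends removed Zfp609 and Zfp511 remained called, and the other 10 did not; GC content's part in them was not tested.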

How the results depend on the processing

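The counts called were 30 members in RNA, 5 in RPF, 12 in TE rhythm and 149 with a low TE. The low TE count stayed within 1.5 times of that. It ran from 100 of 164 members with a median of at least 2 RPKM in both assays to 200 without a minimum fold. The shares were 61.0% and 87.3% of members, against 25.4% and 44.5% of all genes. The rhythm counts were less stable. A pseudocount of 1 gave 9, 0 and 4, and pulls low values together by construction. With that setting 6.58%, 4.97% and 2.71% of all genes were called in RNA, RPF and TE. By limma 57 members had an unadjusted p under 0.05 in RPF, none of them with a 1.5-fold change. An RPKM minimum of 2 gave 15 of 164 members in RNA (9.15%, against 8.61% of all genes). An FDR of 0.01 gave 2 in RPF (0.873%, against 5.93%) and 4 in TE (1.75%, against 1.81%). No minimum fold gave 125, 30 and 32. GC correction gave 6 in RNA and 3 in TE, with or without a replicate block. The added 12-h harmonic gave 47 in RNA (20.5%, against 14.8% of all genes) and 9 in RPF (3.93%, against 10.6%). AIC choice gave 10 in RPF (4.37%, against 9.06%) and 20 in TE (8.73%, against 6.13%). Members with at least 90% of 28-mers of their own gave 18 of 171 in RNA (10.5%, against 10.2% of all genes). Other normalisations and the length correction moved no count by over 1.5 times.

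Leaving out replicates or single pools gave 10 to 48 in RNA, 1 to 7 in RPF, 0 to 16 in TE rhythm and 144 to 153 with a low TE. The extremes 10, 1 and 0 came without replicate 1 and 48 without replicate 2, each with 12 pools left; a TE rhythm was then called by limma in 0 members either way, with 26 and 63 members at an unadjusted p under 0.05, 13 and 35 of them past 1.5-fold, and in 0.0% and 0.0169% of all tested genes. Of single pools, leaving out ZT20 replicate 1 took the TE count to 6 (2.62%, against 3.00% of all genes). Leaving out ZT08 replicate 2 or ZT16 replicate 2 took the RPF count to 3 (1.31%, against 7.50% and 7.55%). The cause was not tested. The share of RNA peaks from ZT18 to ZT24, 53.3%, was 16.7% (1 of 6) with GC correction, 26.7% with windows moved 3 h earlier or later, 52.0% without a minimum fold, and 40.0% to 68.8% without a replicate. The RPF minus RNA peak of Zfp329 and Zfp983, -2.47 h, ran from -4.11 to -1.57 h.

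A replicate block, for which the numbers of different timepoints share only a number (mean correlation 0.0291 in RNA and 0.0197 in RPF), left the rhythm counts at 30, 5 and 12; an unpaired TE level gave 152. Of the members named for a rhythm call, no call moved its peak by over 6 h in the alternatives run. For those named as the 6 highest and 6 lowest in TE, no TE changed sign. Centring on the mean moved the members' median log2 TE from -0.80 to -0.68, so TEs nearer the median may change sign. Calls lost in settings other than leaving out libraries were 25 of 183 in RNA and 12 of 73 in RPF. For TE they were 19 of 85 in rhythm and 1 of 177 in level.

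Depth limits RPF most: the median member rested on 92 to 240 footprints in a library, and the member with the fewest on 0 to 25. RPKM scaled to upper quantiles does not show a change in total RNA over the day, and GC trends of libraries coincided with the time of day in RNA. Median depth was also lower in the dark in both assays.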
